A study of Mus musculus with 8 samples.

Results

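The genes described here make, transport, bind and remove retinoic acid (RA): Aldh1a1, Aldh1a2, Aldh1a3, Rdh10, Dhrs3, Cyp26a1, Cyp26b1, Crabp1, Crabp2 and Stra6. A peak of accessible chromatin was taken as belonging to one of these genes where the deposited peak table lists its exact symbol among the genes assigned to the peak, which the authors did for genes within 10 kb of it, wherever in the gene it lay. By this rule 135 of the 328733 peaks belonged to these 10 genes, out of 21490 genes with at least 1 peak in any library. Overlapping peaks of all libraries merged into 87144 regions, of which 36 held a peak of these genes. The 10 genes had between 1 and 6 regions each.

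The data are ATAC-seq, in which a transposase cuts and tags open DNA, from germ cells of PIWIL2-eGFP mice, which carry eGFP driven by the Piwil2 promoter and were sorted for it. All mice were synchronized with WIN 18,446, an inhibitor of RA synthesis, given at 100 mg/kg for 7 days from 2 days post-partum (dpp), and were collected without RA (0 h) or 18, 48 or 120 h after 200 µg of RA injected at 9 dpp. Each timepoint had 2 libraries with 1 mouse per library. The strain background in the labels is a cross of C57BL/6 and 129s4/SvJae, whereas the methods name SJL in place of the latter, and the labels give 100000 cells per replicate, more than the methods do. No group went without WIN 18,446 and none was followed over time without RA, so that RA, age and time since the last dose of WIN 18,446 cannot be told apart.

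RA is the active form of vitamin A. Cells take up retinol from its carrier protein, in some tissues through the membrane receptor STRA6. RDH10 oxidizes retinol to retinaldehyde, DHRS3 reduces retinaldehyde back to retinol, and the ALDH1A enzymes oxidize retinaldehyde irreversibly to RA. CRABP1 and CRABP2 bind RA in the cytoplasm, the latter being known to carry it to nuclear receptors, and the CYP26 enzymes hydroxylate RA for its removal. In the testis RA starts the change of undifferentiated into differentiating spermatogonia, and WIN 18,446 acts on the ALDH1A step. Cyp26a1 and Dhrs3 are well-known targets of RA, and the RA receptors bind paired copies of a short core motif in such genes.

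The sequences at 5 starts and at 2 other regions are shown for reference. A link between these sequences and the peaks was not tested. The 4 stretches that follow end just before a gene start, in GRCm38 on the strand of the gene, and every CG is in capitals. Aldh1a2 (chr9:71215539-71215788) and Crabp1 (chr9:54764498-54764747) had a peak that overlapped this stretch in all 8 libraries. Dhrs3 (chr4:144892577-144892826) and the downstream start of Aldh1a1 (chr19:20601711-20601960) had one in both libraries only at 0 h. The whole stretch was covered in 7 libraries for Aldh1a2, 6 for Crabp1, 3 for Dhrs3 and 1 for Aldh1a1. The 250 bases held 40 CG in Aldh1a2, 12 in Crabp1, 19 in Dhrs3 and 1 in Aldh1a1.
Aldh1a2: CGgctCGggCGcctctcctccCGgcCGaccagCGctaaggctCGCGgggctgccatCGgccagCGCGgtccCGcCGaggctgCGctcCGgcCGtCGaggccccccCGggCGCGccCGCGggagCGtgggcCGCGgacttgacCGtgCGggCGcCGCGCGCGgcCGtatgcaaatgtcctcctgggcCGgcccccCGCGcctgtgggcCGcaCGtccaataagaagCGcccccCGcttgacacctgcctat
Crabp1: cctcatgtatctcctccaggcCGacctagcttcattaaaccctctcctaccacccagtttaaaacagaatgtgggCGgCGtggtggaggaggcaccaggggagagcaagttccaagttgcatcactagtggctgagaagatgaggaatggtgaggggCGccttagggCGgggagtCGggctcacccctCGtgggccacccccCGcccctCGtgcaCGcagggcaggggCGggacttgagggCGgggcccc
Dhrs3: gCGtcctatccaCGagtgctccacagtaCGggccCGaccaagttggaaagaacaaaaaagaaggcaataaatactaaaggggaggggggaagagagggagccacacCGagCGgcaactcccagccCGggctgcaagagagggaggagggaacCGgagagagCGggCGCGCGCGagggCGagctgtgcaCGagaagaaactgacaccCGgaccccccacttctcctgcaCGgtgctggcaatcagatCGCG
Aldh1a1: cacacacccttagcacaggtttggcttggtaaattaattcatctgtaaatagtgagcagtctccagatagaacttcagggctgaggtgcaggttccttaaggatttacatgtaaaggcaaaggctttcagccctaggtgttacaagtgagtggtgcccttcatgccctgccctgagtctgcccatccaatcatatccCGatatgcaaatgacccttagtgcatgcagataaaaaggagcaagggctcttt

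A direct repeat of an RA receptor core motif lay at the start of Cyp26a1. The stretch chr19:37697548-37697797 is on the strand of the gene, and capitals mark both core motifs, which are TGAACT, the reverse complement of AGTTCA. They are spaced by 5 bases, the form called DR5, at chr19:37697776-37697792, beginning 32 bases before the RefSeq start. Of the bases shown, 152 lie in the region of accessible chromatin at this start.
Cyp26a1: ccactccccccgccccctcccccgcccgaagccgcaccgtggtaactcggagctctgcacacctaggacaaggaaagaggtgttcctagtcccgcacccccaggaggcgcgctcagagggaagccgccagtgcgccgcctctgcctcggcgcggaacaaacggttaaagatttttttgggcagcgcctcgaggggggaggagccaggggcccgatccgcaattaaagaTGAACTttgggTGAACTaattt

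The core motifs searched were AGGTCA with its variants AGTTCA or GGGTCA or GGTTCA in direct repeats spaced by 1, 2 or 5 bases, on both strands, counting overlapping matches. In the RefSeq promoters of GRCm38.p6, each covering 250 bases before to 50 after a start, 32 of 32851 (0.0974%) held a DR5. Promoters of 7 of the 10 genes were matched by symbol (not Aldh1a3, Rdh10 and Crabp2), and of these that of Cyp26a1 was the only one with a direct repeat. In 300 bp centred on the summit, none of the 36 regions held a direct repeat of any of these spacings, as against 0.182% of all 87144 regions for a spacing of 1, 0.254% for 2 and 0.141% for 5. The repeat of Cyp26a1 lies 193 bases before the highest summit of its region, outside that window. Summits of single libraries in that region lay from 0 to 208 bp inside the start, and windows centred on the lower ones were not searched. A single core motif was found in 15 of the 36 windows (41.7%) and in 45.3% of all windows.

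The other stretches shown come from the regions of Rdh10 and Cyp26b1 that had a peak in every library, again with CG in capitals. That of Rdh10 (chr1:16104663-16104918, strand of the gene) lies between the divergent starts of Rdh10 and Rpl7, the gene of a ribosomal protein, and begins just upstream of the annotated start of Rpl7. That of Cyp26b1 (chr6:84590283-84590582, strand of the gene) lies in an intron. They held 15 and 18 CG.
Rdh10: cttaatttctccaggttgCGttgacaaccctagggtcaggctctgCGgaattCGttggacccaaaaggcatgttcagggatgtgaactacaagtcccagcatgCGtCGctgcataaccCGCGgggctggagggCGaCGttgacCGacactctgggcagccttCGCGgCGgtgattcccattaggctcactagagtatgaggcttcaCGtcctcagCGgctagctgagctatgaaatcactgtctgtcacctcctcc
Cyp26b1: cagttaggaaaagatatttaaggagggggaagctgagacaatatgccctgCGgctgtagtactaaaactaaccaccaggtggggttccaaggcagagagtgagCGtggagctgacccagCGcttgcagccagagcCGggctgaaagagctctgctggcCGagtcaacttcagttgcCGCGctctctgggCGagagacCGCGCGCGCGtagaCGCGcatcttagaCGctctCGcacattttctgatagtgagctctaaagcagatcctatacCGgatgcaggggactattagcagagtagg

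The number of peaks per library is the setting in which these genes have to be read. The libraries, which the authors reduced to the same number of tags, held 72215 and 69089 peaks at 0 h and between 24643 and 39551 at the later timepoints. All 7 germ cell markers listed (Ddx4, Dazl, Piwil2, Dnd1, Mael, Tdrd1 and Sohlh1) had a peak in all 8 libraries, with summed peaks of 18 and 20 (0 h) and 14 to 19 later. A count of peaks does not show a change in height. Within 1000 bp of the start, summit heights of Ddx4 were 218 and 266 (0 h) and 72 to 175 later. Those of Piwil2 were 1073 and 1009 and then 331 to 729. At Dazl (376 and 642, then 188 to 526) and Mael (208 and 328, then 100 to 254) 0 h and later heights overlapped. Summed peaks at markers of somatic cells were fewer after 0 h, as were the peaks of whole libraries. The 7 Sertoli markers summed to 30 and 32 peaks at 0 h and 8 to 15 later, the 4 peritubular myoid markers to 17 and 15 and then 5 to 8, the 4 endothelial markers to 15 and 14 and then 3 to 10, the 6 Leydig markers to 8 and 11 and then 0 to 4, and the 4 macrophage markers to 9 and 7 and then 3 to 5. Of the 25 somatic markers, 11 had a peak in every library, including Sox9 and Wt1 in Sertoli cells and Cd68 in macrophages. No later peak was found for 6 (Fshr, Tagln, Ptprc, Cyp17a1, Csf1r and Adgre1), the last 3 of which had a peak in only 1 of the 0 h libraries, whereas the Leydig markers Star and Cyp11a1 had peaks in later libraries alone. Retinoid genes are used by several of these cell types, and the part of somatic cells in the results that follow was not tested. The samples are bulk, so that a lower signal in every cell and a signal in fewer cells cannot be told apart.

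The 10 genes together had 32 and 29 peaks in the 0 h libraries, 10 and 11 (18 h), 9 and 16 (48 h) and 17 and 11 (120 h). Both 0 h libraries thus held more peaks than any of the 6 later ones, which were spread between 9 and 17. As a share of all peaks of a library, however, these genes held 0.0443% and 0.0420% at 0 h and between 0.0320% and 0.0471% later, so that the shares of the timepoints overlapped. The mean difference of 18.2 peaks between 0 h and later libraries fell to 1.67 when each library was cut to its 24643 highest peaks.

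Gene by gene, 7 of the 10 had more peaks in both 0 h libraries than in any later library, which held for 36.9% of the 21490 genes with a peak. These were Aldh1a1, Aldh1a3, Dhrs3, Cyp26a1, Cyp26b1, Crabp2 and Stra6. With each library cut to the same number of highest peaks, the mean difference between 0 h and later libraries was −1 for Aldh1a3 and −0.83 for Cyp26b1, and thus turned direction, 0 for Aldh1a1 and Stra6, and 0.67 to 1.67 for Dhrs3, Cyp26a1 and Crabp2. An exact two-sided permutation test over the libraries, with the smaller tail doubled, was run on the peak numbers before this cut. For each of these 7 genes the exact permutation test gave p = 0.0714, the smallest that 2 against 6 libraries allow. The exact test gave p = 0.143 for Rdh10 and p = 1 for Aldh1a2 and Crabp1. No gene could pass 0.05 in this design.

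**Figure D1:**
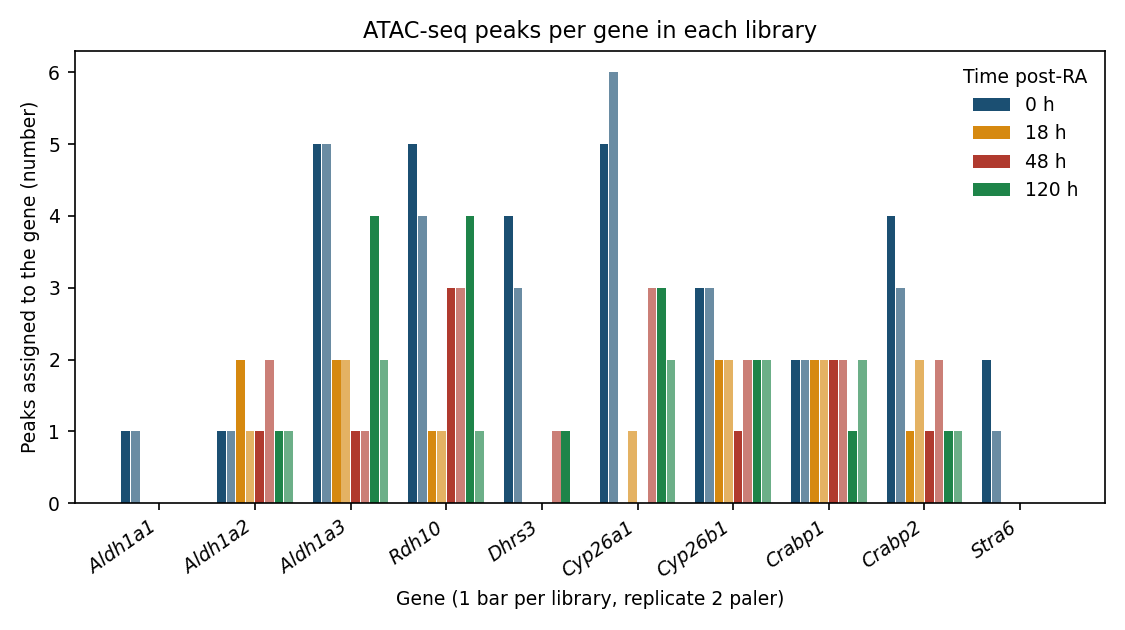
Number of peaks assigned to each gene (vertical axis) in each of the 8 libraries (bars, coloured by time post-RA, replicate 2 paler). Cyp26a1 had 5 and 6 peaks at 0 h and 0 to 3 later, whereas Aldh1a2 and Crabp1 had about the same number throughout.

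A gene was counted as accessible at a timepoint if both replicates had a peak, the criterion of the study. Of the 10 genes, 6 were accessible at all 4 timepoints (Aldh1a2, Aldh1a3, Rdh10, Cyp26b1, Crabp1 and Crabp2), compared with 72.8% of the 20673 genes accessible at any timepoint. Aldh1a1, Dhrs3 and Stra6 were accessible at 0 h only, which is 3 of 10 as against 12.9% of genes. Cyp26a1 was accessible at 0 h and 120 h. Counting peaks inside the gene or within 1000 bp of its start alone left 3 genes accessible at all timepoints, namely Aldh1a2, Cyp26b1 and Crabp1. The share of all genes under this narrower rule was not computed, and the 72.8% does not apply to it.

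A region was called at a timepoint by the same criterion. At 1 timepoint or more, 24 of the 36 regions were called, and all 24 were called at 0 h, as were 96.3% of all 61310 regions called at some timepoint. Of the 24, 12 were called at 0 h only (49.8% of all), and 6 were called at all 4 timepoints (25.3% of all). The count at 0 h only was 4 when each library was cut to its 24643 highest peaks, and 20 without 0 h replicate 2, since 1 library then stood for 0 h. All regions were not recounted under these settings, and the 49.8% does not apply to them. No later peak in either replicate was found for 9 of the 24, compared with 31.6% of the 59063 regions called at 0 h. At 18 h 8 of the 24 were still called, at 48 h 8 and at 120 h 10, where 39.9%, 36.8% and 34.3% of those 59063 regions were. These shares lay near those of all regions. Of the 36 regions, 14 (38.9%) lay within 1000 bp of a start as against 19.03% of all regions, and 15 of 36 (41.7%) overlapped a CpG island as against 18.1%. These sets are unlike, since all regions include those without an assigned gene, and only 74.8% of all peaks had one. The start was that of the gene itself for the 36 regions and that of any assigned gene for all regions. Another gene was assigned as well to 14 of the 36, and the nearest start in GENCODE was that of the gene itself for 23.

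**Figure D2:**
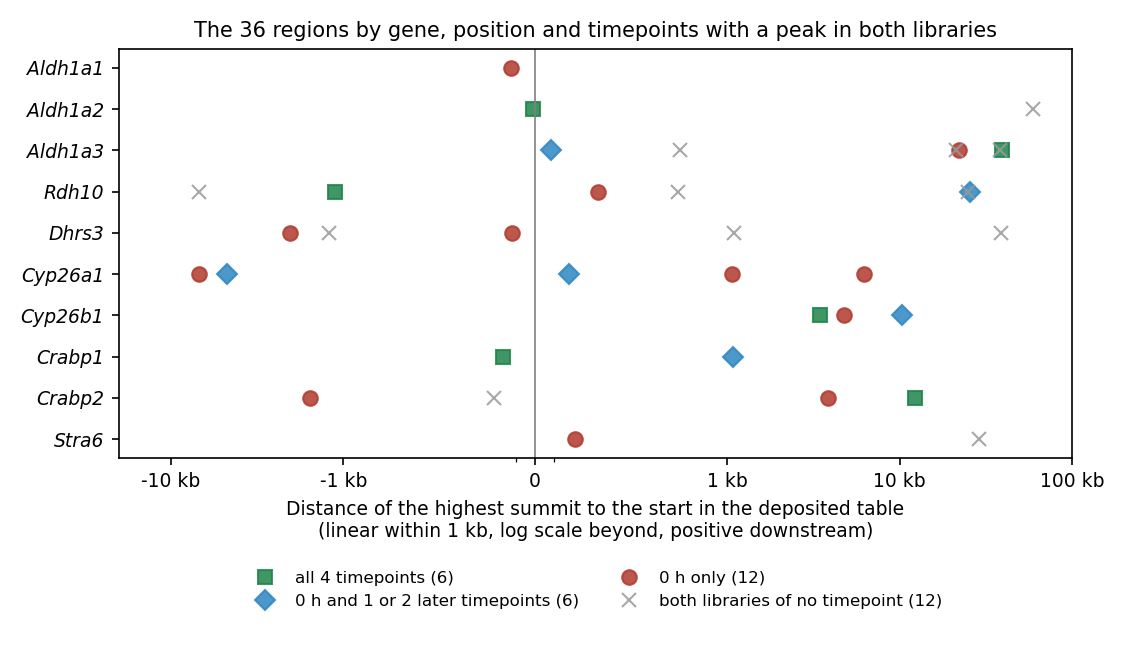
Each symbol is 1 of the 36 regions, placed by gene (rows) and by the distance of its highest summit to the start given in the deposited table (horizontal axis, linear within 1 kb and logarithmic beyond), with the symbol and colour showing the timepoints at which both libraries had a peak. The 6 regions called at all timepoints (green squares) include the starts of Aldh1a2 and Crabp1, and the 12 called at 0 h only (red circles) include those of Aldh1a1, Dhrs3 and Stra6.

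Among the enzymes that make RA, Aldh1a2 had a start peak at all timepoints and Aldh1a1 at 0 h only. The region of Aldh1a2 (chr9:71215004-71216566, summit 13 bp before the start, in a CpG island) had summit heights, in tags of coverage after the authors' reduction, of 254 and 264 (0 h), 64 and 125 (18 h), 77 and 87 (48 h) and 111 and 93 (120 h). All later libraries were below both 0 h libraries, and every library had a peak. Its only other region, in an intron 59507 bp downstream of the start, was a peak of 32 in 48 h replicate 2. Aldh1a1 had 1 region (chr19:20601708-20602078, 126 bp before a downstream start and within an intron of the longest annotated gene model), with heights of 47 and 57 (0 h) and no peak at any later time. Its mean height at 0 h, 52, was at the 6.83 percentile of the highest 0 h summits of all genes, against the 56.4 percentile for Aldh1a2. The lowest summit called in any library was 24 or 25.

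Aldh1a3 had 6 regions. The one at its start (chr7:66427078-66427894, summit 85 bp inside, over a coding exon and a CpG island) had heights of 87 and 107 (0 h), 34 and 51 (18 h), no peak at 48 h, and 42 and 39 (120 h). It was called at 3 timepoints, with the heights at 18 h and 120 h below those at 0 h. A region with a peak in all libraries lay beyond the far end of the gene, 39189 bp from its start (chr7:66387398-66388483), and its summit was 45 bp from the start of Lrrk1, a kinase gene that the authors also assigned to it. Its heights were 66 and 97 (0 h), 45 and 42 (18 h), 51 and 55 (48 h) and 54 and 57 (120 h). The region of both 0 h libraries without a later peak lay in an intron (chr7:66405465-66405778, 21941 bp from the start) and was low, at 31 and 36. The other 3 regions had 1 or 2 peaks of 37 to 57.

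Rdh10, which makes the substrate of the ALDH1A enzymes, had the highest summits of the 10 genes. The region upstream of it (chr1:16104129-16105616, in a CpG island) had heights of 313 and 362 (0 h), 150 and 165 (18 h), 136 and 156 (48 h) and 258 and 203 (120 h). The groups did not overlap between 0 h and the others, and the 120 h values lay between those of 0 h and 48 h. Its summit was 1114 bp before the start of Rdh10 but 123 bp from that of Rpl7, so that the peak cannot be ascribed to Rdh10 alone. The region whose highest summit was nearest to the start of Rdh10 (chr1:16105985-16106419, 326 bp inside, a coding exon in a CpG island) had heights of 79 and 106 (0 h) and no later peak. Within the gene, 25414 bp from the start (chr1:16131117-16131515), a region had 108 and 110 (0 h), 35 and 35 (48 h), 53 in 120 h replicate 1 and no other peak. The other 3 regions had a peak in 1 of the 0 h libraries, of 42 to 89, and in at most 2 later libraries, of 44 to 82.

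Dhrs3, the reductase that opposes Rdh10, had no start peak in 5 of the 6 later libraries. That region (chr4:144892148-144892888, summit 123 bp before the start, in a CpG island) had heights of 123 and 148 (0 h), no peak at 18 h or 48 h, and 68 in 120 h replicate 1 alone. A region 2043 bp upstream (chr4:144890637-144890954) had 128 and 118 (0 h) and no later peak. Its remaining 3 regions had peaks of 39 to 76, in 1 or 2 libraries each.

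For the breakdown enzymes, the 2 genes differed in the number of libraries with a peak. Cyp26a1 had 5 regions, and none had a peak in all 8 libraries. At its start (chr19:37697646-37698193, summit 176 bp inside, over a coding exon and a CpG island), which holds the DR5 shown earlier, heights were 95 and 116 (0 h), no peak at 18 h, 57 in 48 h replicate 2, and 56 and 45 (120 h). A peak was thus called in neither 18 h library and in both 120 h libraries, at heights below those of 0 h. The peaks of both 0 h libraries covered the repeat, whereas those of the other 3 libraries, which were lower, did not reach it. A region 4688 bp upstream (chr19:37692890-37693378) had 122 and 150 (0 h), 54 in 18 h replicate 2, 55 in 48 h replicate 2, and 70 and 51 (120 h). The region 6864 bp upstream (chr19:37690747-37691128) had 159 and 170 (0 h) and no later peak, the highest values among the 12 regions called at 0 h only. Both lie over coding exons of Cyp26c1, the neighbouring gene of the same family, and are assigned to both genes. Downstream of the start, the region at 1072 bp had 89 and 101 (0 h), 64 in replicate 2 of 48 h and 62 in replicate 1 of 120 h, and that at 6224 bp had 45 and 47 at 0 h alone.

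Cyp26b1 had 3 regions, all inside the gene and none within 1000 bp of its start. Its intronic region (chr6:84589864-84590642, 3476 bp from the start) had heights of 254 and 222 (0 h), 72 and 91 (18 h), 60 and 91 (48 h) and 151 and 68 (120 h). All later libraries were below both 0 h libraries, and of the 120 h libraries replicate 1 was above and replicate 2 within the range of the 18 h and 48 h libraries. The region 4756 bp from the start (chr6:84588989-84589359) had 88 and 90 (0 h) and no later peak. The third, 10356 bp from the start in a CpG island, had 91 and 113 (0 h), 60 in 18 h replicate 2, 55 in 48 h replicate 2, and 103 and 74 (120 h), so that 0 h and 120 h overlapped there.

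Of the binding proteins, Crabp1 had a start peak in all libraries. At its start (chr9:54764127-54765137, summit 168 bp before the start, in a CpG island) heights were 146 and 171 (0 h), 76 and 128 (18 h), 69 and 72 (48 h) and 97 and 75 (120 h), all later values being lower than those of 0 h. Its other region, in an intron 1080 bp from the start, had 120 and 149 (0 h), 53 and 53 (18 h), 56 and 60 (48 h), and 46 in 120 h replicate 2 alone. Crabp2 had only a peak of 76 in 1 of the 0 h libraries at its start (chr3:87948410-87948609, 213 bp upstream). Its region with a peak in all libraries lay 12331 bp downstream of the start (chr3:87960665-87961248), beyond the gene, and was assigned to Nes as well, with heights of 152 and 197 (0 h), 48 and 52 (18 h), 55 and 71 (48 h) and 134 and 100 (120 h). A region 1557 bp upstream (chr3:87946920-87947446, shared with Isg20l2) had 67 and 74 (0 h) and no later peak. The remaining one, 3819 bp downstream of the start, had 127 and 150 (0 h) and later a peak of 52 in replicate 2 of 18 h and of 50 in that of 48 h.

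Stra6, the receptor for retinol uptake, was the gene whose highest peak at 0 h was lowest among the 10. The region at an internal start (chr9:58129141-58129526, 208 bp inside, an intron of the longest gene model) had heights of 32 and 43 (0 h) and no later peak, and a peak of 39 over an exon of Islr was found in 1 of the 0 h libraries. Its mean highest summit at 0 h was 41, at the 3.18 percentile of all genes. Over all genes the median of that value was 226, and only Aldh1a2, Rdh10 and Cyp26b1 of the 10 were above it, at 259, 338 and 238.

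**Figure D3:**
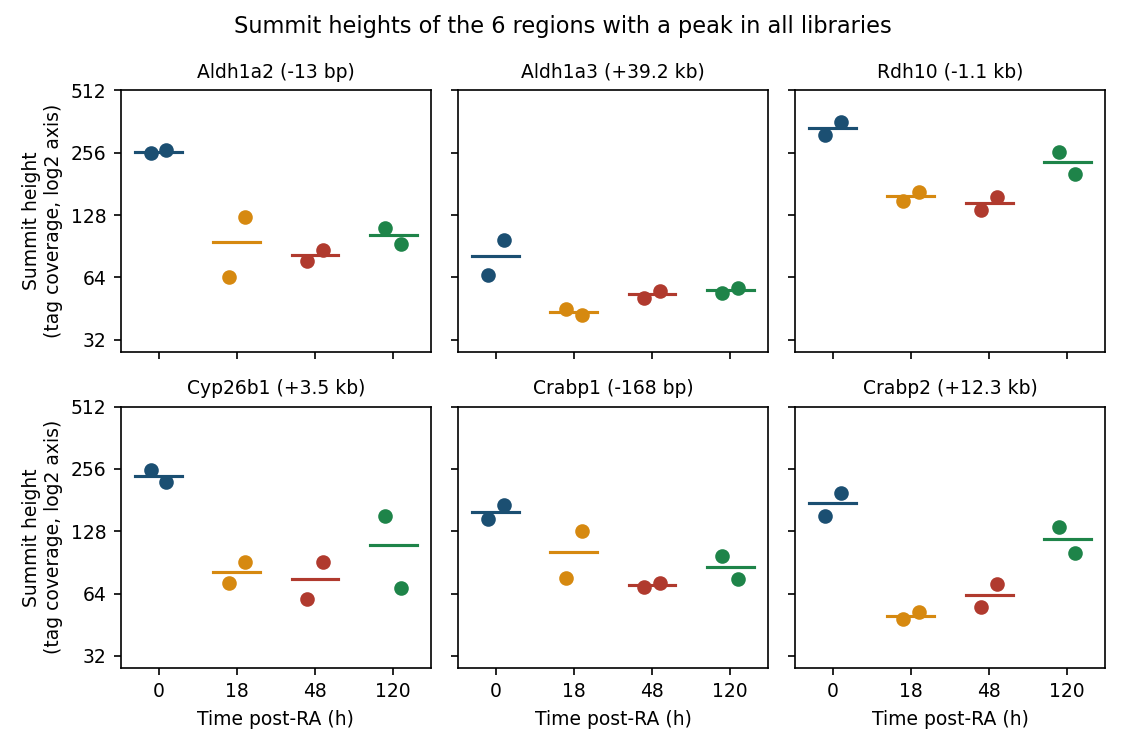
Summit height (tag coverage, log2 axis) of the 6 regions that had a peak in every library, by time post-RA, with 1 point per library and a bar at the mean of the 2. In all 6 panels both 0 h points lie above all later points, which held for 67.7% of all 15536 such regions, with narrow gaps for Aldh1a3 (66 against 57), Crabp1 (146 against 128) and Crabp2 (152 against 134).

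Heights could be compared in the 6 regions that all 8 libraries shared. The fit was made with limma on the log2 heights of all 15536 such regions, with Benjamini-Hochberg adjustment over all of them. Its SE was 0.37 for every region and contrast. The spread was thus pooled over all regions, and an adjusted p does not reflect the replicate spread of its own region. Differences between whole libraries enter it, such as median log2 heights of 7.38 and 6.73 in 120 h replicates 1 and 2. The 3 contrasts with 0 h share the 0 h libraries. At 18 h, 5 of the 6 were lower than at 0 h, where 92.3% of all regions were lower. The log2 changes that passed were −1.53 for Aldh1a2 (adjusted p = 0.00023), −0.88 for Aldh1a3 (0.0207), −1.10 for Rdh10 (0.00465), −1.55 for Cyp26b1 (0.000201) and −1.79 for Crabp2 (3.65e-05). Crabp1 had a change of −0.68 with adjusted p = 0.0715. With the mean signal of the peak in place of its summit, Aldh1a3 did not pass (−0.52, adjusted p = 0.0923) and Crabp1 did (−0.65, 0.0386). On leaving out 0 h replicate 2, Aldh1a3 and Rdh10 did not pass, and on leaving out 18 h replicate 1 Aldh1a2 did not pass either. The change of all regions shrank as well, with a median of −1.09 without 0 h replicate 2 and −1.04 without 18 h replicate 1. It was −1.23 with all libraries. Crabp1 passed on leaving out 18 h replicate 2 (−1.06, adjusted p = 0.0294), as it did without either 120 h library (0.0324), and Aldh1a3 then did not pass without 18 h replicate 2 (0.0831). At 48 h, 5 of the 6 were lower, with 93.3% of all regions, and Aldh1a3 was the one that did not pass (−0.60, adjusted p = 0.114). The others had changes of −1.66 (Aldh1a2), −1.21 (Rdh10), −1.68 (Cyp26b1), −1.16 (Crabp1) and −1.47 (Crabp2).

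At 120 h, 3 of the 6 were lower than at 0 h, Aldh1a2 by a log2 change of −1.35 (adjusted p = 0.0013), Cyp26b1 by −1.23 (0.00356) and Crabp1 by −0.89 (0.0386), where 44.8% of all regions were. Without 120 h replicate 2 the calls of Cyp26b1 and Crabp1 were lost. The median change of all regions was then −0.47, against −0.75 with all libraries. The call of Crabp1 was also lost without either 0 h or either 48 h library, with adjusted p from 0.0562 to 0.235, with the mean signal of the peak (0.0779) and with only the 4 libraries compared (0.0803). The change was −0.53 for Aldh1a3, −0.56 for Rdh10 and −0.58 for Crabp2, none of which passed. Between 18 h and 48 h none of the 6 passed in limma, and none had an unadjusted p under 0.05, in a contrast that called 0.00644% of all regions. Between 48 h and 120 h none passed either, with 1 under 0.05 unadjusted, where 23.7% of all regions were higher at 120 h. The 6 changes in that contrast ran from 0.07 to 0.89, and all were above 0. The highest was that of Crabp2, with adjusted p = 0.0615. In the latter contrast, without 120 h replicate 2, the changes of Crabp2 (1.10) and Cyp26b1 (1.03) stood beside a median of 0.87 over all regions.

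The heights of all shared regions were lower after 0 h as well. The median log2 change of the 15536 regions was −1.23 at 18 h, −1.36 at 48 h and −0.75 at 120 h against 0 h, and 0.56 at 120 h against 48 h. Relative to this shift, that is after subtracting from each library its own median log2 height, none of the 6 passed in any contrast, although 1.47% of all regions did at 18 h, 4.77% at 48 h and 38.7% at 120 h against 0 h, and 16.9% at 120 h against 48 h. Of the 6, 2 had an unadjusted p under 0.05 at 18 h, 1 at 48 h and 0 at 120 h against 0 h, and 1 at 48 h against 18 h and 0 at 120 h against 48 h. The centred changes of Aldh1a2 were −0.27, −0.27 and −0.46 at 18, 48 and 120 h (SE 0.24), and those of Cyp26b1 were −0.29, −0.29 and −0.34 (SE 0.24). Rdh10 had 0.16, 0.18 and 0.33 (SE 0.20), and Aldh1a3 had 0.38, 0.80 and 0.36 (SE 0.26, adjusted p = 0.0997 at 48 h), so that their direction turned with the scaling. Crabp1 had 0.58 at 18 h (SE 0.21, adjusted p = 0.244), and Crabp2 had −0.53 at 18 h and 0.31 at 120 h (SE 0.20, adjusted p = 0.256 and 0.232).

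**Figure D4:**
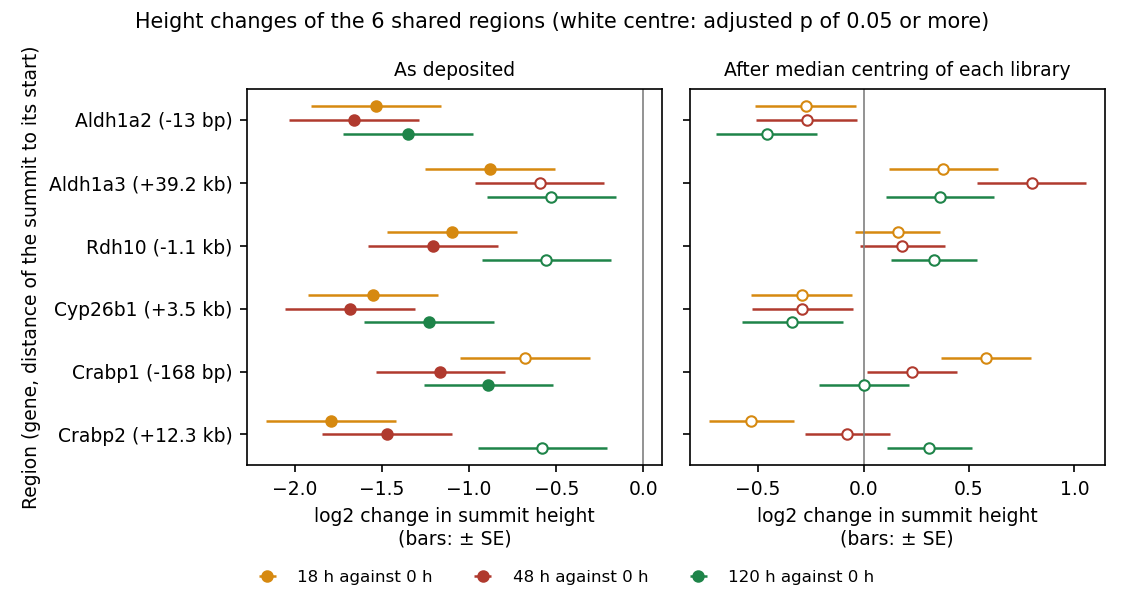
Log2 change in summit height against 0 h (horizontal axis, bars ± SE) of the 6 regions, coloured by time post-RA, with the heights as deposited on the left and after median centring of each library on the right. White centres mark an adjusted p of 0.05 or more. The changes lie between −1.79 and −0.53 on the left and between −0.53 and 0.80, all with white centres, on the right.

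Where a library had no peak its height is not known, so that no fold can be given for the regions called at 0 h only. At 0 h, these 12 regions had mean heights with a median of 90.8, compared with 61.5 for all 30507 regions called at 0 h only. The 6 shared regions had a median of 206, compared with 248 for all 15536.

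The other genes of retinoid metabolism form a list of 32. Of these, 26 had a peak in some library, 13 in all 8 libraries, and 11 had more peaks in both 0 h libraries than in any later library, compared with 36.9% of all genes with a peak. Their peaks summed to 68 and 66 (0 h) and to 26 to 41 later. A further 15 regions, of 11 genes, had a peak in every library. Against 0 h, all 15 passed as lower at 18 h, with 14 at 48 h and 5 at 120 h. At 120 h against 48 h, 3 passed as higher, and the median log2 change of the 15 was 0.70. These counts stand beside the 92.3%, 93.3%, 44.8% and 23.7% of all regions given earlier. After median centring, none differed at 18 h, 1 was higher at 48 h and at 120 h 2 were lower and 3 higher, where 1.47%, 4.77% and 38.7% of all regions differed.

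Lrat, which stores retinol as esters, was among the 2 that were lower at 120 h after centring. Its start region had heights of 123 and 146 (0 h), 46 and 50 (18 h), 44 and 52 (48 h) and 60 and 37 (120 h), with a centred change of −0.62 (SE 0.19, adjusted p = 0.024). The other was at the start of Rdh13, with −0.63 (SE 0.23, adjusted p = 0.048). Of the 3 that were higher at 120 h after centring, the first was at Adh5 (0.65, adjusted p = 0.0344). The others lay 1976 bp from the start of Rbp7 (0.69, 0.0454) and 19083 bp from that of Rdh11 (0.63, 0.0307). As deposited, the changes of these 3 regions were −0.24, −0.20 and −0.26, in that order, and none passed. The other Rbp7 region with a peak in every library went the other way at 120 h. Its change was −0.22 after centring, which did not pass, and −1.11 as deposited (adjusted p = 0.00856). No library had a peak within 1000 bp of the start of Rbp7. Adh5 is an alcohol dehydrogenase, Rbp7 a cellular retinol-binding protein and Rdh11 and Rdh13 retinol dehydrogenases. The region assigned to Rdh5 that was higher at 48 h after centring (0.92, adjusted p = 0.0319) had heights of 88 and 118 (0 h), 50 and 55 (18 h), 70 and 77 (48 h) and 80 and 74 (120 h).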

How the data were processed

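ATAC-seq libraries of 4 timepoints with 2 replicates each were used. Reads were aligned by the authors to the mm10 build (GRCm38), and after removal of duplicates and reduction to equal tags the peaks of each library were called separately. The submitters' processing notes name bcl2fastq 2.20, BWA 0.7.12, SAMtools 0.0.19, bedtools 2.25.0 and MACS2 2.1.0. The deposited table holds, for each peak, the signal (tag coverage) at its summit and its mean, and the genes assigned to it. Since read counts in regions were not used here, the depth behind a peak is unknown and no counting interval was given.

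Overlapping peaks (1 bp or more) were merged across libraries, and the highest summit signal of a library in a region was its height. The log2 heights were fitted in R 4.3.3 with limma 3.58.1, in 1 fit of 4 groups, over regions with a peak in all 8 libraries, with a Benjamini-Hochberg threshold of 0.05. In simulated data, 200 of the 15536 regions were lowered at 18 h, with independent noise for each region and no shift of whole libraries. The numbers of changed regions called were 0 for a log2 change of 1, 157 for 2 and 195 for 3, of 0, 163 and 198 regions called in all. In the real contrast 92.3% of the regions were lower, so that these numbers do not carry over to it. Peaks per gene were compared with exact permutation tests over 28 splits in Python 3.11.15. Features and gene starts came from GENCODE vM21 and the GRCm38 sequence, and coordinates count from 1.

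All 10 genes were named. Regions named with all values were those with a peak in all libraries, that nearest each start, and for each gene the region of both 0 h libraries without a later peak that was highest in the lower library. Of the other retinoid genes, those with a region past the threshold after centring were named. Some further regions were given as well, chosen after their values were seen. The genes and lists were chosen with earlier results of these data known. Alternatives were other scalings, the mean signal, a replicate block, other peak limits and each library left out. Whether replicates came from separate litters was not stated.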

Additional observations from a re-analysis of the deposited data

How the results depend on the processing

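The counts of lower regions followed the scaling. With median centring, with or without the replicate block, and with quantile normalization, 0 of the 6 regions were lower at 18, 48 or 120 h than at 0 h. Centred changes turned above 0 for Rdh10 (0.16, 0.18 and 0.33 at 18, 48 and 120 h), Aldh1a3 (0.38, 0.80 and 0.36) and Crabp1 (0.58, 0.23 and 0.0011), and for Crabp2 at 120 h (0.31), with the same values under the block. Under quantile normalization they were 0.17, 0.22 and 0.10 for Rdh10, 0.095, 0.50 and 0.45 for Aldh1a3, 0.58, 0.18 and 0.15 for Crabp1 and 0.37 for Crabp2 at 120 h. Between 48 h and 120 h, centring turned the change of Aldh1a2 (−0.19), Aldh1a3 (−0.44), Cyp26b1 (−0.047) and Crabp1 (−0.23), and quantile normalization that of Aldh1a2 (−0.10), Aldh1a3 (−0.047), Rdh10 (−0.13) and Crabp1 (−0.033). None of these turned values passed the threshold. Setting missing heights to the lowest summit value of the library, gave 22, 23 and 18 of 24 regions lower at 18, 48 and 120 h, beside 81.5%, 83.9% and 68.6% of all 61310 regions. All 24 were called at 0 h, so that filling in their missing later heights sets this direction, and these counts support nothing. A summit value of at least 50 in all libraries left 4 regions, 3 of them lower at 18 h, beside 93.8% of all 11657 regions left.

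Leaving out 1 library changed how many of the 6 regions passed at 18 h and 120 h and between 48 h and 120 h, but not at 48 h. The median change of all regions moved too. Against 0 h it ran from −1.42 to −1.04 at 18 h and from −1.03 to −0.47 at 120 h. At 120 h against 48 h it ran from 0.27 to 0.87. In the last contrast the change of Cyp26b1 ran from −0.12 without 120 h replicate 1 to 1.03 without 120 h replicate 2. Counts at 0 h only ran from 10 to 20, regions at all timepoints from 6 to 7, and the difference in peaks from 16.7 to 19.7. With the same number of highest peaks a library, that difference was 1.67, 4 regions were called at 0 h only, and the differences of Aldh1a3 (−1) and Cyp26b1 (−0.83) turned below 0. With peaks inside the gene or within 1000 bp of its start, the difference was 11.3 and 3 genes were accessible at all timepoints. These values, and the recounts of peaks and regions before them, were not computed for all genes or regions. The cause of these changes was not tested beyond what the settings themselves leave out.

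The labels give the timepoints the same replicate numbers but do not say that a number marks shared animals or days. Deviations of same-numbered libraries correlated between −0.22 and 0.25. With the replicate number as a block, 5, 5 and 2 of the 6 regions were lower at 18, 48 and 120 h. Of all regions 90.4%, 92.1% and 41.1% were. Crabp1 at 120 h had adjusted p = 0.0564 (limma). The numbers called on simulated data were obtained with the fit without centring, whose SE was larger, and with changes in 200 regions.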
